A study of Mus musculus with 8 samples.

Results

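To find gene starts that carried active chromatin in tumors of mice with a thymic stromal lymphopoietin (TSLP) transgene and not in tumors of mice without it, the H3K27ac peak lists of 4 mouse breast tumors were read at every autosomal protein-coding gene. Of 20807 such genes, 66 (0.317%) had a peak within 1 kb of the transcription start site (TSS) in both test tumors and in neither control tumor. These 66 test-only genes are described here. They were chosen by the presence of those peaks, so presence, width and position of the promoter peaks are given as a description, without a test. The reverse, control-only pattern was found for 114 genes (0.548%). The order of these counts turned with peaks of at least 1 kb only, at 179 test-only and 93 control-only genes. Of those 179 genes, 1 was among the 66, and the others had a control promoter peak narrower than 1 kb. The order also turned without test 2, at 211 and 155. With equal peak numbers in every tumor the counts were 90 and 95. A further 10584 genes had a promoter peak in all 4 tumors and 8616 genes in none.

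Both groups were PyMT;Rag1KO mice: they carried the polyoma middle T oncogene under the MMTV promoter, lacked Rag1 and therefore had no T or B cells of their own, and received an injection of CD4+ T cells when 4 weeks old. Control tumors came from mice with no further transgene. Test tumors came from K14-TSLPtg;PyMT;Rag1KO mice, in which TSLP, an epithelial cytokine that drives type 2 helper T cell responses, is expressed from the keratin 14 promoter of skin and other basal epithelial cells. In the titles the test samples are named cyst and the control samples tumor. The PyMT, TSLP and Rag1KO lines were on the BALB/c background, and each tumor was from a separate mouse. There were 2 tumors in each group, with 69861 and 67850 peak intervals in the control tumors and 65763 and 59762 in test 1 and test 2. With 2 tumors against 2, an exact permutation test cannot give a two-sided p below 0.333, and no test between the groups was made.

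H3K27ac is placed by the acetyltransferases p300 and CBP on nucleosomes beside active gene starts and active enhancers, and it is removed by histone deacetylases. At a working promoter the mark usually lies on both sides of the nucleosome-free start, often over a broad stretch. Many mammalian promoters lie in CpG islands, stretches rich in the dinucleotide CpG that are kept free of DNA methylation and that serve housekeeping and developmental genes, whereas tissue-restricted genes often start in CpG-poor sequence. A peak list records where the mark passed the caller's threshold and not how strong it was. A missing peak can therefore be a weak mark, and an acetylated start does not by itself show transcription.

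The tumors were bulk tissue, and fewer cells of a type and less acetylation per cell cannot be told apart in them. Of 8 luminal epithelial markers (Krt8, Krt18, Krt19, Epcam, Cdh1, Elf5, Cldn3 and Cldn7), 8 and 7 had a promoter peak in control 1 and control 2, and 8 and 7 in test 1 and test 2. Of 6 myeloid markers, 5 had one in every tumor. Basal markers (Krt5, Krt14, Trp63 and Acta2) had a promoter peak for 3, 1, 3 and 0 of 4 genes in control 1, control 2, test 1 and test 2, and Trp63 had none in any tumor. Fibroblast markers had 2, 3, 1 and 0 of 4, endothelial markers 2, 2, 1 and 0 of 4 and T cell markers 2, 1, 1 and 0 of 4. Cd3e and Cd4 had no promoter peak in any tumor, although all mice had received CD4+ T cells. Test 2 thus had no promoter peak at any of the basal, fibroblast, endothelial and T cell markers. The part of these cell types in the test-only pattern was not tested.

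The start sites of the test-only genes ranged from CpG islands to sequence almost without CpG. The 200 bases upstream of the TSS are shown for 7 of the 15 genes with the most promoter bases in peaks, taken from the RefSeq copy of GRCm38 and written 5′ to 3′ on the gene's strand, with each CpG in capitals. The first are CpG-rich starts, those of Bend7 (chr2:4717631-4717830, plus strand, 34 CpG) and Snx25 (chr8:46152160-46152359, minus strand, 31 CpG).
Bend7: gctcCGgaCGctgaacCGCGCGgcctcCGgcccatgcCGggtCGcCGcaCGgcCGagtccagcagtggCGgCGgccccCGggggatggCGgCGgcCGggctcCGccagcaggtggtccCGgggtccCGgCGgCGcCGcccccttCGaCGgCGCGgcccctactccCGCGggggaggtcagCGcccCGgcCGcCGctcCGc
Snx25: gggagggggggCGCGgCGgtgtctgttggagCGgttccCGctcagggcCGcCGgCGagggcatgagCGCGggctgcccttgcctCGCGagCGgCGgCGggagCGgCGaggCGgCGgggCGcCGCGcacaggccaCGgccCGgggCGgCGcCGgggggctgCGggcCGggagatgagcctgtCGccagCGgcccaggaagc

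The second kind are CpG-poor starts, those of 2210418O10Rik (chr2:176226369-176226568, plus strand, 0 CpG), Slco1a6 (chr6:142208522-142208721, minus strand, 1 CpG) and Mrgpra2a (chr7:47452140-47452339, minus strand, 1 CpG). Each of these genes has peaks partly or wholly in sequence that occurs more than once in the genome, as described below.
2210418O10Rik: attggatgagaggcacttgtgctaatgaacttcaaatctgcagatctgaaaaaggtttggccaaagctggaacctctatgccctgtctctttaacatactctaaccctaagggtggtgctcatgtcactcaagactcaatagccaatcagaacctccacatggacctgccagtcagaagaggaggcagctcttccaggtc
Slco1a6: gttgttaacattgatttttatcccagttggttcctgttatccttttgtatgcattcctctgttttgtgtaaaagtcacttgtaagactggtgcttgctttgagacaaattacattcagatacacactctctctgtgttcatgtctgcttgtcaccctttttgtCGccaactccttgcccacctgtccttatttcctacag
Mrgpra2a: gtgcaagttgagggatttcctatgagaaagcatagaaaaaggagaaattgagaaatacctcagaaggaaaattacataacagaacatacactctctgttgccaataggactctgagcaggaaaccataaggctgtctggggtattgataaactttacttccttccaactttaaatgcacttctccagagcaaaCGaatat

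The last are the starts of Rab38 (chr7:88430073-88430272, plus strand, 6 CpG), whose smaller test tumor value of promoter bases in peaks was the highest of the 66 genes, and Matn2 (chr15:34306477-34306676, plus strand, 12 CpG), the only test-only gene that was in a listed gene group.
Rab38: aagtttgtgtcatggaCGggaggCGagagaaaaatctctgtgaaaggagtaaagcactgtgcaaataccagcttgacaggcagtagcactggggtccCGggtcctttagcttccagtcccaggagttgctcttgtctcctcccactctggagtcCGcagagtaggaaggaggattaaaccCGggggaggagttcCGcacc
Matn2: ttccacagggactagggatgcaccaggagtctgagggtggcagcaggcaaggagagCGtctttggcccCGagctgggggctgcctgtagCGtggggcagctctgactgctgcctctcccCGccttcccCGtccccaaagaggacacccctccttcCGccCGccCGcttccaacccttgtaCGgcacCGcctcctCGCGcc

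The promoter peaks of the test-only genes were narrow. The bases of the 2001 bp window (TSS ±1 kb) that lay in peaks had a median of 298.5 (range 71 to 1287) in test 1 and 323 (28 to 1585) in test 2, against 0 in both control tumors by the rule. Test 2 had more bases than test 1 at 36 genes and fewer at 30. The widest promoter peak of a gene had a median width of 275 bp in test 1 and 273.5 bp in test 2. At the 10584 genes with a promoter peak in all 4 tumors, the corresponding medians were 1700 and 1544.5 bp. A widest peak under 300 bp was found at 56.1% and 51.5% of the test-only genes and at 0.935% and 2.67% of the genes with peaks in all 4 tumors, in test 1 and test 2. The control-only genes had narrow peaks too, with median widths of 274.5 bp in control 1 and 304 bp in control 2.

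**Figure D1:**
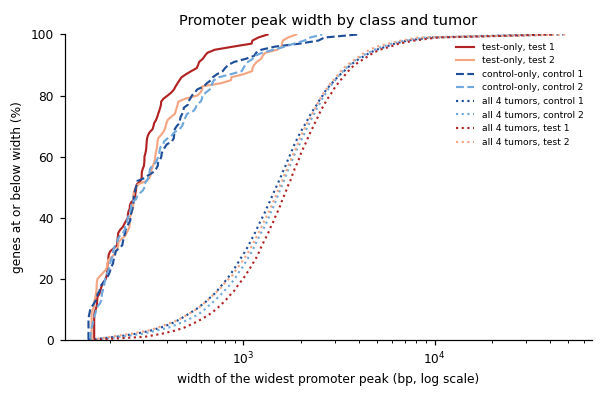
Width of the widest promoter peak (bp, log scale) against the percent of genes at or below it, for test-only genes in the test tumors, control-only genes in the control tumors and genes with a promoter peak in all 4 tumors. The test-only and control-only curves lie close to each other, with medians of 273.5 to 304 bp, and far to the left of the dotted curves of genes with peaks in all tumors.

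Many of these peaks stood near the smallest size in the lists. The narrowest intervals were 166 bp in test 1 and 161 bp in test 2, and the widest promoter peak had exactly that width at 6 test-only genes in test 1 (Dnah7b, Kcnj13, Macrod2, Trim47, Esr2 and Rorb) and at 7 in test 2 (Acvr2b, Pcsk4, Reep6, P2rx5, Spdya, Fbxo43 and Zfp641). This was 9.09% and 10.6% of the test-only genes, against 0.0661% and 0.236% of the genes with peaks in all 4 tumors. No gene was at the narrowest width in both test tumors. At the other end, peaks of 1 kb or more numbered 3 of 75 in test 1 (Fxyd6, Ovol2 and Rbm17) and 9 of 76 in test 2, with a peak shared by a pair of genes counted for each.

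The peaks often lay beside the start and not over it. A peak covered the TSS itself at 13 test-only genes in test 1 (19.7%) and at 17 in test 2 (25.8%), against 83.2% and 76.7% of the genes with peaks in all 4 tumors. At control-only genes it was covered at 9.65% in control 1 and 17.5% in control 2. The TSS was covered in both test tumors at 5 genes, namely Rab38, Smim5, Dpysl5, Mrgpra2a and Rgr. Peaks lay only downstream of the TSS at 32 genes in each test tumor (48.5%) and only upstream at 18 genes in test 1 and 12 in test 2. At control-only genes the share with peaks only downstream was 70.2% in control 1 and 60.5% in control 2. Of the bases in the test-only promoter peaks, 31.8% lay upstream of the gene in test 1 and 39.3% in test 2. Introns held 33.9% and 33.6% of them, untranslated or noncoding exon sequence 22.5% and 16.8% and coding sequence 11.8% and 10.3%. The peaks of test 1 and test 2 overlapped each other at 60 of the 66 genes. At the other 6 genes, Cd59b, Shcbp1l, Dlx4, Pde3b, Dpf3 and Kcnj13, both tumors had a peak in the window but at different places.

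**Figure D2:**
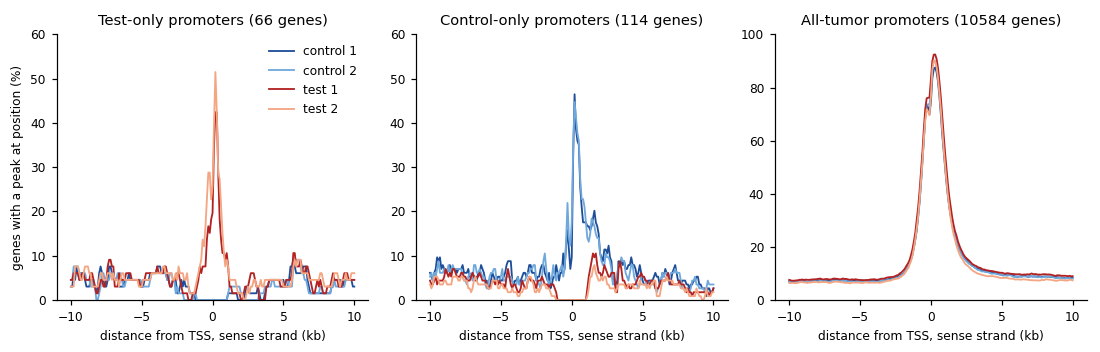
Percent of genes with a peak at each position from 10 kb before to 10 kb after the TSS (kb, sense strand) in each tumor, for 66 test-only, 114 control-only and 10584 genes with a promoter peak in all tumors (the third panel has a longer vertical axis). At test-only genes the share was highest 200 bp after the TSS, at 42.4% in test 1 and 51.5% in test 2, and the control tumors stayed at or below 9.09% at every position.

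The rule keeps control peaks out of the window, and their distance beyond it is described here. The nearest control peak lay at a median of 15745.5 bp from the TSS (range 1015 to 352077). For 44 of the 66 genes (66.7%) neither control tumor had a peak within 10 kb, against 32.8% of all genes and 77.1% of genes with no promoter peak in any tumor. At control-only genes, 46.5% had no test peak within 10 kb. For 11 of the 66 test-only genes neither control tumor had a peak within 50 kb, a share like that of all genes (3662 of 20807). At the opposite end, 5 test-only genes had a control peak within 2 kb, a count not made over all genes. The members just inside the rule were Rbm17, whose nearest control peak was 1015 bp away, Mgst2 at 1111 bp and Cyp2f2 at 1171 bp. Rbm17, a splicing factor, had 167 bp of its window in peaks in test 1 and 28 bp in test 2, both from the edge of a peak over 1 kb wide that continued downstream. Genes just outside the rule had peaks in both test tumors and a few control bases: Pkd2l2 had 5 bp in control 1 and 0 in control 2, Cyp2d34 had 0 and 7 bp, and Ccin had 35 and 0 bp.

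**Figure D3:**
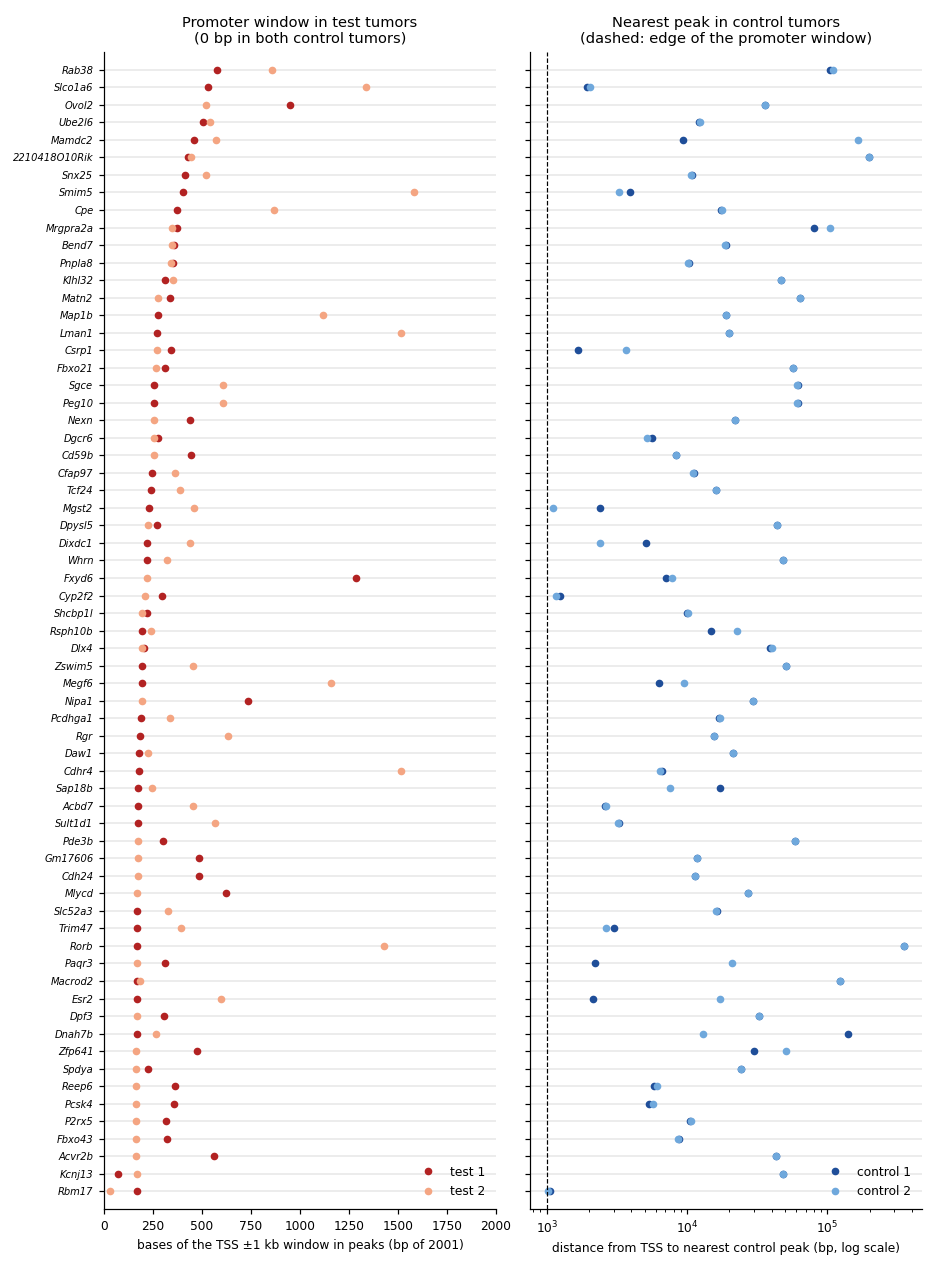
Left, bases of the 2001 bp promoter window in peaks in test 1 and test 2 for all but 1 of the 66 test-only genes, which are 0 in both control tumors by the rule; right, distance (bp, log scale) from the TSS to the nearest peak in control 1 and control 2, with the window edge dashed. Genes are ordered by the smaller of their test tumor values, from Rab38 at the top to Rbm17, and the control distances run from 1015 to 352083 bp.

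Transcription factors and other nuclear regulators made up 11 of the test-only genes. Ovol2, a zinc finger repressor that maintains epithelial identity, had 950 bp of its window in peaks in test 1 and 522 bp in test 2. Its gene lies on chromosome 2 (144305175 to 144332146, minus strand), and the peak of test 1 ran from 51 to 1170 bp after the TSS through exon and intron sequence. Test 2 had separate peaks from 63 to 339 and from 756 to 1110 bp in the same stretch, and the nearest control peaks were 36135 bp away in control 1 and 36139 bp in control 2. Its relative Ovol1 had promoter peaks in all 4 tumors, with 1601 and 1980 bp in the control tumors and 1414 and 1395 bp in test 1 and test 2.

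Nuclear receptors were represented by Rorb and Esr2. Rorb, an orphan receptor best known from retina and brain, had 166 bp in peaks in test 1 and 1432 bp in test 2, so nearly all of its coverage came from test 2. It was the test-only gene farthest from any control peak, at 352077 bp in control 1 and 352083 bp in control 2. Its relative Rora had promoter peaks in all 4 tumors, with 422, 1157, 881 and 1637 bp in control 1, control 2, test 1 and test 2. Esr2, which encodes estrogen receptor beta, had 166 bp in test 1 and 595 bp in test 2, with control 1 having a peak 2121 bp from the TSS. Esr1, encoding estrogen receptor alpha of luminal breast epithelium, had 1711 and 1220 bp in the control tumors and 1072 and 1412 bp in the test tumors, and these ranges overlapped. These relatives were picked after the values of the members had been seen.

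Bend7, a BEN domain gene on chromosome 2 (4717831 to 4802142, plus strand) with the CpG-rich start shown above, had 358 and 346 bp in test 1 and test 2. Both peaks lay near the start of the gene, at 104 to 461 and 134 to 479 bp after the TSS, and were close to equal in the test tumors. Dpf3, a subunit of the BAF chromatin remodelling complex, had 304 and 166 bp at different places, after the TSS in test 1 and before it in test 2. Its relative Dpf2 had peaks in all 4 tumors and Dpf1 in none. The homeobox gene Dlx4 had 202 and 195 bp, and its neighbour Dlx3 had no promoter peak in any tumor. Tcf24, a basic helix-loop-helix gene, had 241 bp just upstream of its TSS in test 1 and 390 bp across it in test 2, and its window had the highest CpG ratio of the members. Zswim5, Zfp641 and Sap18b ranged from 161 to 477 bp over both test tumors.

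Receptors, signalling and trafficking genes were another 11. Rab38, a small GTPase that directs cargo to melanosomes and other lysosome-related organelles, lies on chromosome 7 (88430273 to 88491572, plus strand). It had 579 bp in peaks in test 1 and 858 bp in test 2, with the TSS covered in both, from -276 to 302 bp relative to it in test 1 and from -288 to 569 bp in test 2. The nearest control peaks were 104097 bp away in control 1 and 110574 bp in control 2. Its close relative Rab32 had a promoter peak in every tumor, with 717 and 715 bp in the control tumors and 695 and 562 bp in test 1 and test 2.

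Cpe, which encodes carboxypeptidase E of prohormone processing, had 371 bp in test 1 and 867 bp in test 2 and its nearest control peak at 17479 bp. The related Cpd had promoter peaks in all 4 tumors. Snx25, a sorting nexin, had 415 and 520 bp. Mrgpra2a, a Mas-related receptor of sensory neurons, had 372 and 349 bp over its TSS and was 80698 bp from the nearest control peak. Acvr2b, an activin receptor, had 563 and 161 bp, and the related Acvr2a had 1517 to 2001 bp in every tumor. Lman1, a cargo receptor between endoplasmic reticulum and Golgi, had 271 and 1518 bp. The complement inhibitor gene Cd59b had 443 and 254 bp, and its neighbouring paralog Cd59a had 909 and 1296 bp in the control tumors and 1220 and 878 bp in the test tumors. Dixdc1, a Wnt pathway gene, had 221 and 438 bp, and Paqr3, Reep6 and Rgr had from 161 to 632 bp.

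**Figure D4:**
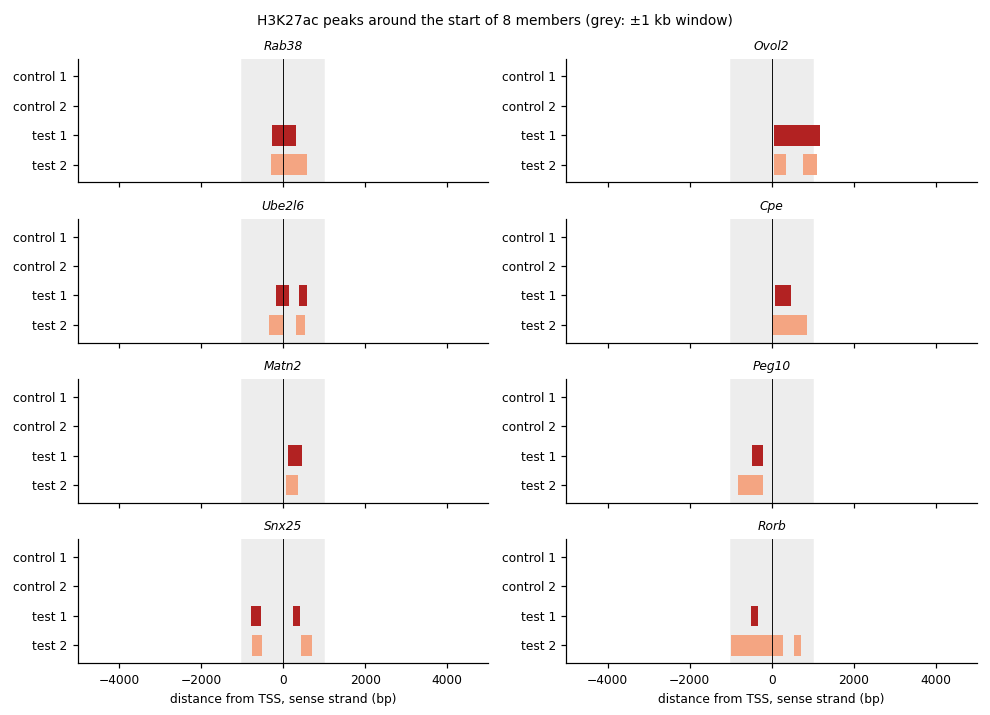
H3K27ac peaks as bars from 5 kb before to 5 kb after the TSS (bp, sense strand) of 8 test-only genes, 1 row per tumor, with the ±1 kb window in grey. No control peak lies in the drawn range at any of the 8 genes, the peaks of the test tumors overlap at each, and at Rorb test 2 has a wide peak over the TSS and a narrow one after it.

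Genes of the extracellular matrix and of cell adhesion numbered 7. Matn2 encodes matrilin 2, an adaptor of matrix filaments, and was the only test-only gene of the list of epithelial–mesenchymal transition (EMT) and mesenchymal genes. It lies on chromosome 15 (34306677 to 34436273, plus strand) and had 338 bp in test 1 and 277 bp in test 2, from 110 to 447 bp and from 75 to 351 bp after the TSS. The nearest control peaks were 63460 and 63825 bp away. Of 49 genes in that list, 29 and 30 had a promoter peak in the control tumors and 23 and 14 in test 1 and test 2, and 5 were control-only (Loxl1, Dcn, Igfbp3, Il6 and Eno2), against 0.548% of all genes. Over all 20807 genes, 11434 and 11521 had a promoter peak in the control tumors and 11559 and 11079 in test 1 and test 2. The list had 1 test-only gene of 49, against 0.317% of all genes. Matn2 and those 5 control-only genes have opposite patterns by the rules that chose them. Among the other matrilins, Matn1 had no promoter peak in any tumor, Matn3 had 174 bp in control 2 and 186 bp in test 1, and Matn4 had 155, 376, 834 and 0 bp in control 1, control 2, test 1 and test 2.

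Mamdc2, a secreted MAM domain protein, had 459 bp in test 1 and 574 bp in test 2, and its nearest peak lay 9418 bp away in control 1 and 166110 bp away in control 2. Megf6, an EGF repeat gene, had 194 and 1159 bp. The cadherin superfamily genes Cdh24, Cdhr4 and Pcdhga1 had from 171 to 1515 bp. Sgce, which encodes epsilon-sarcoglycan, shared its peaks with Peg10, and both are imprinted genes expressed from the paternal copy. Their starts lie 99 bp apart on opposite strands on chromosome 6, and a single peak in each test tumor, at 4746829 to 4747083 in test 1 and at 4746492 to 4747100 in test 2, lay within Sgce and upstream of Peg10. Each gene therefore had 255 bp in test 1 and 609 bp in test 2, and the nearest control peak was 61149 bp from Peg10. The neighbouring genes Casd1 and Ppp1r9a had promoter peaks in all 4 tumors, with 1152, 1572, 1666 and 1594 bp for Casd1 and 607, 834, 708 and 783 bp for Ppp1r9a in the same order of control 1 to test 2.

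The other 3 pairs also shared peaks and had their starts on opposite strands, with 2 peaks in test 1 at each pair. Cfap97 and Snx25 started 388 bp apart, Gm17606 and Cdh24 412 bp apart and Pcsk4 and Reep6 455 bp apart. The 66 genes therefore rest on fewer separate promoter regions, and the 8 genes of these pairs are not independent of their partners.

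Metabolic and detoxifying enzymes numbered 8. Pnpla8, a calcium-independent phospholipase A2, had 352 and 344 bp in test 1 and test 2. Pde3b, a cyclic nucleotide phosphodiesterase of insulin signalling, had 302 bp in test 1 before the TSS and 171 bp in test 2 after it, and was 58831 bp from the nearest control peak. Macrod2, an ADP-ribosylhydrolase, had 166 and 182 bp and was 123454 bp from a control peak. Mgst2, a microsomal glutathione transferase, had 228 and 459 bp, while its relatives Mgst1 and Mgst3 had from 1416 to 2001 bp in every tumor. The cytochrome P450 gene Cyp2f2 had 295 and 210 bp, the sulfotransferase gene Sult1d1 171 and 569 bp and Mlycd, which encodes malonyl-CoA decarboxylase, 621 and 170 bp. Acbd7 had 172 and 453 bp.

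Of the 4 genes for ubiquitin and related conjugation, Ube2l6 had the most promoter coverage. It encodes the conjugating enzyme for the interferon-induced modifier ISG15 and lies on chromosome 2 (84798828 to 84810335, plus strand). Its window held 505 bp in test 1 and 540 bp in test 2, in each case as a peak at the start and another in the first intron, and the nearest control peaks were 12133 and 12263 bp away. Isg15 itself had promoter peaks in all 4 tumors, with 1553, 2001, 1222 and 2001 bp in control 1, control 2, test 1 and test 2. Fbxo21, an F-box gene, had 311 and 266 bp and was 56491 bp from a control peak. Klhl32 had 312 and 354 bp and the ubiquitin ligase gene Trim47 166 and 395 bp.

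Cytoskeletal genes were 6. Map1b, a microtubule-associated protein of neurons, had 275 and 1116 bp, and its relative Map1a had no promoter peak in any tumor. Nexn and Csrp1, proteins of the actin cytoskeleton in muscle, had 439 and 255 bp and 340 and 270 bp. Whrn and Dpysl5 had from 219 to 319 bp. Channels, transporters and ion regulators were another 6, led by Slco1a6, an organic anion transporter, with 529 bp in test 1 and 1338 bp in test 2. Control peaks lay 1931 and 2022 bp from its TSS. Fxyd6, a regulator of the sodium pump, had 1287 and 218 bp, Nipa1 733 and 192 bp and Kcnj13, a potassium channel gene, 71 and 168 bp. Slc52a3, a riboflavin transporter, and P2rx5, an ATP-gated channel, had from 161 to 327 bp.

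Genes used in cilia and in germ cells formed 2 groups of 4. The ciliary genes Dnah7b, Daw1, Rsph10b and Cfap97 encode an axonemal dynein heavy chain, a dynein assembly factor, a radial spoke protein and a cilia-associated protein. Their windows held from 166 to 245 bp in test 1 and from 222 to 361 bp in test 2. Of the germ cell genes, Fbxo43 and Spdya act in meiosis, Pcsk4 is a sperm proprotein convertase and Shcbp1l is expressed in testis, and the 4 had from 219 to 359 bp in test 1 and from 161 to 196 bp in test 2. Ciliary genes had more bases in test 2 than in test 1 at each of the 4 genes, and germ cell genes fewer. The remaining genes were 2210418O10Rik with 430 and 445 bp, Smim5 with 402 and 1585 bp, Dgcr6 with 275 and 255 bp, and Peg10 and Gm17606, named above. 2210418O10Rik was 197033 bp from the nearest control peak.

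None of the 66 genes was in the other 11 gene lists, which covered luminal and mammary differentiation, basal cells, epidermal differentiation, fibroblasts, endothelium, myeloid cells, T cells, type 2 immunity, neurons, adipocytes and retinoic acid metabolism. In the luminal list, 40 and 38 of 52 genes had a promoter peak in the control tumors, against 39 in each test tumor. In the type 2 immunity list it was 13 and 12 of 38 in the control tumors and 13 and 10 in test 1 and test 2. Fibroblast genes had 7 and 4 of 17 in the control tumors against 4 and 1, endothelial genes 9 and 6 of 18 against 4 and 0, and myeloid genes 19 and 18 of 29 against 16 and 13. The groups overlapped for basal genes, with 13 and 7 of 20 in the control tumors against 9 and 4, for T cell genes, with 3 and 4 of 19 against 4 and 1, and for epidermal genes, with 9 and 6 of 30 against 7 in each test tumor. The counts over all genes, given above with the EMT list, overlapped between the groups as well. Over all 12 lists, 1 of 324 distinct genes was test-only (0.309%), against 0.317% of all genes.

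To ask whether the surroundings of the promoters also differed, the percent of bases in peaks was taken from 1 to 10 kb on either side of the TSS. For 35 of the 66 test-only genes (53.0%) no tumor had any peak there, against 22.8% of control-only genes, 13.1% of genes with promoter peaks in all 4 tumors and 40.0% of all genes. At those 35 genes the H3K27ac intervals within 10 kb all lay in the promoter window. Of the 31 genes with flank coverage, 14 (45.2%) had more in both test tumors than in both control tumors and 1 (Cdhr4) had less. At the control-only genes the mirror image was found, with less in both test tumors at 44 of 88 genes and more at 2. Over all 12485 genes with flank coverage, 17.0% had more in both test tumors and 12.8% less. The flank comes from the same tumors as the rule, and a promoter peak that crosses the window's edge adds to it, so these shares are not independent of how the genes were chosen.

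Flank coverage varied widely among the 31 genes. Sult1d1 had 33.0% and 31.6% of its flank in peaks in the control tumors and 35.9% and 73.8% in test 1 and test 2. Megf6 had 3.45% and 1.84% against 9.12% and 17.3%, and Fxyd6 6.93% and 2.27% against 13.8% and 9.83%. Slco1a6 had 33.0% and 28.9% against 33.7% and 37.0%, and Dixdc1 19.0% and 20.4% against 22.5% and 23.4%. These 5 are examples of the 14 genes with more in both test tumors. Csrp1, with 27.9% and 17.4% in the control tumors against 24.2% and 22.7%, and Trim47, with 17.8% and 21.1% against 21.0% and 20.9%, had wide coverage that overlapped between the groups. For Cdhr4 the flank coverage was 14.9% and 21.2% in the control tumors, against 13.6% and 6.18% in test 1 and test 2. Over the 31 genes the median difference, test minus control, was 0.914 percentage points, and over all covered genes it was 0.133. The members' medians in the 4 pairs of a test tumor and a control tumor had an SD of 0.270. The pairs share tumors, and each pair uses the genes covered in its own tumors, so this SD is not a spread between replicates. Over all 66 members the median difference was 0. The reach of the flank changed which members were covered. The median difference over the covered members was 2.54 points within 5 kb (n = 23) and 0.431 within 25 kb (n = 50).

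A gene can also be acetylated at another of its annotated starts. Of the 66 test-only genes, 11 (16.7%) had a control peak within 1 kb of another annotated transcript start, and so were not without a promoter peak in control tumors when all starts are counted. Trim47 had such a peak at 6 other starts in both control tumors, Dgcr6 and Cfap97 at 4, Lman1, Pnpla8 and Megf6 at 3, Pcsk4 at 2 and Csrp1 and Rbm17 at 1. Dixdc1 had one at 4 other starts in control 1 and 6 in control 2, and Mgst2 at 0 and 4. Among the control-only genes, 26 (22.8%) had a test peak at another start. The other 55 test-only genes had no control peak at any annotated start.

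The base composition of the promoters, which the rule did not use, is given as a description. The CpG ratio, the number of CpG observed in the 2001 bp window over that expected from its C and G content, had a median of 0.53 (interquartile range 0.33 to 0.69) at the test-only genes. It was 0.26 (0.18 to 0.43) at the control-only genes, 0.63 (0.51 to 0.74) at genes with peaks in all 4 tumors, 0.20 at genes with none and 0.49 at all genes. A ratio of at least 0.6 was found at 28 test-only genes (42.4%) and 11 control-only genes (9.65%), against 35.0% of all genes and 56.8% of those with peaks in all 4 tumors. A ratio under 0.3 was found at 14 test-only genes (21.2%) and 66 control-only genes (57.9%), against 34.4% of all genes. Members ranged from 0.92 at Tcf24, 0.90 at Cfap97 and 0.89 at Bend7 to 0.09 at Rgr and 0.04 at Mrgpra2a. These values describe the genes found in these 4 tumors, and both genes of a shared promoter region are counted.

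The CpG ratio was also taken by the surroundings. The 35 test-only genes with no flank peak in any tumor had a median ratio of 0.61, and the 31 with a flank peak 0.40. The control-only genes showed a like split, at 0.45 without and 0.24 with a flank peak. Of the 28 genes with a ratio of at least 0.6, 19 had no flank peak. At genes with a promoter peak in a single tumor the medians were 0.27 (n = 132) for control 1, 0.33 (n = 153) for control 2, 0.43 (n = 145) for test 1 and 0.39 (n = 129) for test 2. Both test tumors were thus above both control tumors in this measure as well, and the difference was smaller than that between the test-only and control-only genes. The EMT, endothelial and myeloid lists and the fibroblast and endothelial markers had more promoter peaks in both control tumors than in either test tumor. So did the retinoic acid list, at 10 and 9 of 24 against 8 in each test tumor. The neuronal list did too, at 2 of 27 in each control tumor against 1 in each test tumor. Test 1 equalled control 2 for the fibroblast list and exceeded it for the basal markers, and the myeloid markers had the same count in every tumor. The part of these cell types in the composition of the promoters was not tested.

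**Figure D5:**
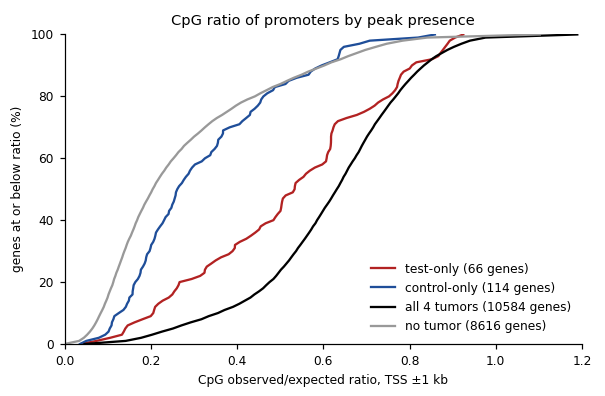
CpG observed over expected ratio within 1 kb of the TSS against the percent of genes at or below it, for 66 test-only, 114 control-only and 10584 genes with a promoter peak in all tumors and 8616 genes with none. The test-only curve lies between those of the control-only genes (median 0.26) and of the genes with peaks in all tumors (median 0.63).

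The letters of 6 motifs were counted on both strands of the 300 bases upstream of each TSS, and none of them contains another. GGGCGG, the GC box, which itself holds a CpG, was present at 34 test-only genes (51.5%), against 35.1% of control-only genes, 41.0% of all genes and 58.7% of genes with promoter peaks in all 4 tumors. TATAAA, the TATA box, was present at 5 test-only genes (7.58%), against 13.8% of all genes, 11.4% of control-only genes and 7.89% of those with peaks in all 4 tumors. CCAAT was present at 21 (31.8%), against 39.4% of all genes, 33.3% of control-only genes and 39.5% of those with peaks in all 4 tumors. TGANTCA, the AP-1 type string, was present at 2 (3.03%), against 7.10% of all genes, 10.5% of control-only genes and 5.05% of those with peaks in all 4 tumors. TTCNNNGAA, the STAT type string, was present at 3 (4.55%), against 8.32%, 12.3% and 7.38% in the same order. AGATAA, the GATA type string, was present at 5 (7.58%), against 11.2% of all genes, 9.65% of control-only genes and 7.31% of those with peaks in all 4 tumors. The strings other than the GC box were each found at a lower share of the test-only genes than of all genes. For TATAAA and AGATAA the share was close to that of genes with peaks in all 4 tumors. None of the 6 was held by 13 members, and this count was not made over all genes. A match of letters is not a bound site.

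Some peaks lay in sequence that occurs more than once in the genome, where short reads can be hard to place. The share of 32-base words of the test tumors' promoter peaks that also occur elsewhere in GRCm38 was 0 at 50 genes and over 10% at 7. It was 100% at 2210418O10Rik and at Mrgpra2a, 74.5% at Sap18b, 32.6% at Cd59b, 30.2% at Slco1a6, 23.5% at Macrod2 and 12.4% at Dnah7b. For 2210418O10Rik and Mrgpra2a the place of the peaks is therefore uncertain. The promoter peaks of other genes were not searched in this way, so these shares have no comparison. Read length was not used here, and other copies were not aligned. How the authors treated such reads was not given in the sources used here.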

How the data were processed

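H3K27ac ChIP-seq was read in 2 control and 2 test tumors, grouped by the genotype in the labels. Input libraries were not analysed here. Reads had been aligned to mm10 with BWA by the authors, who ran MACS2 on each tumor against its own input. The deposited lists hold chromosome, start, end and the names of joined caller peaks, with no score. The smallest gap between intervals was 201 bp in every tumor. Sequencing depth is unknown, and deeper sequencing can add narrow peaks.

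Gene starts were the 5′ ends of GENCODE M21 genes (GRCm38, the same assembly as mm10), on 19 autosomes. A promoter peak overlapped TSS ±1 kb by at least 1 bp. Intervals were compared with python 3.11.15, numpy 2.4.6 and pandas 2.3.3, and the code was tested on simulated intervals. Sequences came from RefSeq's GRCm38.p6. Genes named were the members in a gene list, the 15 with the most promoter bases in both test tumors, the 10 farthest from control peaks, those sharing peaks and the 3 nearest to the rule on either side, with the others by role. Of these, 1 member is not reported here.

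The members and lists were chosen with earlier results of these data known, and the roles and relatives after their values were seen. Alternatives covered the window, the flank, the peak width and number, the overlap, the starts and each tumor.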

Additional observations from a re-analysis of the deposited data

How the results depend on the processing

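No paired analysis was possible because the tumor numbers only name tumors and no result came from a test. The count of 66 test-only genes was 69 with a window of 500 bp either side, 74 with 2 kb, 69 with any annotated transcript start, 80 with an overlap of at least 200 bp and 90 with equal peak numbers, the 59762 widest in each tumor. Of the 66 genes, these settings shared 56, 61, 55, 31 and 53. With peaks of at least 1 kb only, 179 genes were test-only, of which 1 (Rbm17) was among the 66. The others had a control promoter peak narrower than 1 kb, which this setting leaves out. No member was kept under all 6 of these alternatives, and 21 were kept under 5. The 114 control-only genes became 93 with peaks of at least 1 kb and lay between 95 and 120 in the other 5, so that among these 6 the order of the groups turned with wide peaks only. Leaving out a tumor gave 144 to 211 test-only and 155 to 479 control-only genes, where requiring 1 tumor raises the count by construction. The order also turned without test 2, with 211 test-only against 155 control-only genes.

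The median promoter peak width of the members, 274.2 bp as the mean of the test tumors (SD 1.06, n = 2), was 313.5 bp with equal peak numbers, 300 bp with a window of 500 bp, 288.2 bp with 2 kb and 1262 bp with peaks of at least 1 kb, the last by construction. Leaving out a tumor gave 273.5 to 275 bp. The median flank difference of 0.914 points (n = 31 covered genes) was 2.54 within 5 kb (n = 23) and 0.431 within 25 kb (n = 50). It was 1.65 with peaks of at least 1 kb (n = 133) and 0.872 to 0.944 without a tumor (n = 29 to 31). Each of these medians is over the genes covered under its own setting. The median CpG ratio of 0.53 was 0.65 with peaks of at least 1 kb and 0.60 when measured within 500 bp, where control-only genes had 0.46 and 0.30. Without the 7 members of repeated sequence, an alternative chosen after seeing the data, it was 0.55. The share with a control peak at another start, 16.7%, was 8.38% with peaks of at least 1 kb. The causes were not tested. A weak mark below the caller's threshold could not be detected at the unknown depth.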
